A study of Mus musculus with 12 samples.

Results

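The stretch of chromosome 12 described here, chr12:114390001-114454000, lies below the 3′IgH CBEs, on the side away from the constant-region genes. Its members are all junctions of 5′Sμ whose prey mapped there, 348 of the 53012 junctions in 12 libraries. The stretch was chosen because 3′IgH CBEs-deleted libraries held junctions in it and WT libraries almost none, so the contrast between genotypes is given as a description. Coordinates are those of mm9, and of the first 30 prey bases at least 27 were identical to mm9 in 335 of the 348 junctions (96.3%). Junctions were divided into eS (ectopic S region, chr12:114448001-114454000), its neighbour (chr12:114445001-114448000) and the rest of the stretch, 55 kb, which reaches down past Tmem121 and 4930427A07Rik to Crip1.

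Junctions were measured by CSR-HTGTS-seq, which amplifies genomic DNA from a primer at the 5′ end of Sμ (the bait) and reads the sequence joined to a break in Sμ (the prey). Splenic B cells came from chimeric mice made by RAG2-deficient blastocyst complementation, whose mature lymphocytes all descend from the injected TC1 ES cells of 129 background. WT cells were compared with cells homozygous for the deletion of all 10 CBEs of the 3′IgH super-anchor, both with intact AID. All deleted cells descend from targeted ES cells, whose number of clones is not given in the sources used here. CD43-negative cells of each genotype were cultured for 96 h with αCD40/IL4 or, in other groups, LPS/αIgD-dextran, giving 4 groups of 3 libraries. Replicates are described as independent repeats, and whether each was a separate mouse is not given in the sources used here.

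In class switch recombination, activation-induced cytidine deaminase (AID) deaminates cytosines in transcribed, repetitive S regions, and the resulting breaks in Sμ are joined to breaks in a downstream S region. AID favours tetranucleotides with A, G or T, then G, then C or T, then A or T, and their reverse complements (DGYW/WRCH), among which the palindrome AGCT is the core of many S-region repeats. CBEs are binding elements of CTCF, which anchors chromatin loops, and the 3′IgH CBEs mark the end of the IgH domain. Joining within the locus in the orientation that deletes the intervening DNA is called deletional, and the other orientation inversional. Joints made by end joining are direct, share a few bases of homology between bait and prey, or carry inserted bases.

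Where junctions in eS were densest is shown by the 3 non-overlapping 10-base windows with the most junctions over the 6 deleted libraries. Each is printed with 30 bases of mm9 plus-strand sequence on either side. Capitals mark every base at which at least 1 junction lay. The first window, chr12:114452967-114452976, held 7 junctions from 4 libraries, 6 of them inside a DGYW/WRCH motif. The second, chr12:114450067-114450076, held 6 junctions from 5 libraries, 2 of them in a motif. The third, chr12:114449032-114449041, held 5 junctions from 4 libraries, 1 of them in a motif.
chr12:114452937-114453006: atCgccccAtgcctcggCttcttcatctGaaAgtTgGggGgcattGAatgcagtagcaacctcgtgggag
chr12:114450037-114450106: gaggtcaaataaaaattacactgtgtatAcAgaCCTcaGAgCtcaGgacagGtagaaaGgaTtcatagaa
chr12:114449002-114449071: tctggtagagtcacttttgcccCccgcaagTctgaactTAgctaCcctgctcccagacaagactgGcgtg

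Across the whole of eS, the 300 bases with the most junctions were chr12:114451393-114451692, with 41 junctions at 35 positions from all 6 deleted libraries, 12 from αCD40/IL4 and 29 from LPS/αIgD-dextran. The median 300-base window of eS held 15. This window had 52.7% GC and 3 AGCT sites, and 74.6% of all 300-base windows of eS held at least 1 AGCT. Of its 41 junctions, 22 lay in a DGYW/WRCH motif, which covered 38.7% of its positions, and 6 were inversional. The window was picked for its junction count. The plus-strand mm9 sequence is given with junction bases in capitals.
chr12:114451393-114451692: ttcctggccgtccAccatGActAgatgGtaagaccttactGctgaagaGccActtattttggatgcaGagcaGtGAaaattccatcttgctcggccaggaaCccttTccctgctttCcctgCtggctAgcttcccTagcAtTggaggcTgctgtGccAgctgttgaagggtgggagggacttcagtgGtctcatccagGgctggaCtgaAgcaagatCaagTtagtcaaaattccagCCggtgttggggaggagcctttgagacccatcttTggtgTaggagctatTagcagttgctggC

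The joints themselves are shown by the longest homology at eS in each deleted library, as read from the bait (left) into eS (right) with 20 bases on either side. Capitals mark the bases that both the bait and eS could have supplied. All 6 joints were deletional, and the longest homology ranged from 3 to 12 bases. The 12-base homology in LPS/αIgD-dextran replicate 1 contains AGCT.
αCD40/IL4 replicate 1, prey at 114448064: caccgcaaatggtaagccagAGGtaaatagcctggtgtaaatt
αCD40/IL4 replicate 2, prey at 114451412: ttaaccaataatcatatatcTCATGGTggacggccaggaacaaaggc
αCD40/IL4 replicate 3, prey at 114451828: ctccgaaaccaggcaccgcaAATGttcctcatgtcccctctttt
LPS/αIgD-dextran replicate 1, prey at 114449097: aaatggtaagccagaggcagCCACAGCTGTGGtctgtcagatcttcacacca
LPS/αIgD-dextran replicate 2, prey at 114449861: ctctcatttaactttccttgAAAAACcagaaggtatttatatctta
LPS/αIgD-dextran replicate 3, prey at 114451122: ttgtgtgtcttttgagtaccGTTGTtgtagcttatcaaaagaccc

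The longest insertion at eS under each stimulation is shown in the same way, with capitals for bases that the alignment assigned to neither side. In the deleted libraries the longest insertion was also 30 bases in Sμ and from Sε to Sγ3. Whether the junction lists cap this length was not tested. The 30 bases in αCD40/IL4 replicate 1 had no exact match in mm9. The first 25 of them occurred, on the opposite strand, in a read of αCD40/IL4 replicate 3 with its prey at eS, chr12:114453030-114453177, inside an alignment with an 11-base gap against mm9. These bases were therefore read as eS sequence in one library and as an insertion in the other. The 25 bases in LPS/αIgD-dextran replicate 1 contain AGCT 3 times and occurred, on the opposite strand, in a read of LPS/αIgD-dextran replicate 3 with its prey in Sμ.
αCD40/IL4 replicate 1, prey at 114453106: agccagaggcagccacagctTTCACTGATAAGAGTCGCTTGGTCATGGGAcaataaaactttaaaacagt
LPS/αIgD-dextran replicate 1, prey at 114452681: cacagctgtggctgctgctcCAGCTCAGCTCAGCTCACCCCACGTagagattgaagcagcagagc

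Libraries held 2273 to 8261 junctions genome-wide, and 1267 to 6098 in the window of chromosome 12 from 114390001 to 114700000, the denominator used below unless another is named. Read names placed replicate 1 of every group in one sequencing run and replicate 2 of every group, with replicate 3 of both LPS/αIgD-dextran groups, in another, while replicate 3 of each αCD40/IL4 group had a run of its own. WT LPS/αIgD-dextran replicates 2 and 3 had 1031 joints in common, 16.9% of the smaller library, and no other pair of libraries shared more than 8.66%. The pairs ranked 2 to 7, which shared 8.66 to 5.63%, all held deleted αCD40/IL4 replicate 3, with partners of both genotypes and both stimulations. Why it shared joints was not tested. Within eS, 1 joint with the same bait and prey ends was found in more than 1 library. The deposited αCD40/IL4 lists hold only part of the Sγ1 junctions that the study counted for these libraries. This lowers the denominators of those libraries in the window, in the window outside Sμ and genome-wide, and so raises their shares there. Wilson 95% confidence intervals and limits for a count of 0, taken as 3 junctions of the library, cover counting error only.

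Junctions in the stretch came from deleted cells with a single exception. WT libraries held 0, 0 and 0 junctions with αCD40/IL4, among 3476, 3830 and 3499 in the window, and 0, 0 and 1 with LPS/αIgD-dextran, among 3933, 4940 and 6098. A count of 0 allows a share of up to 0.0607 to 0.0863% in these libraries. The only WT junction lay in an intron of Crip1 at 114391123, was deletional and carried an 11-base insertion between a bait of 256 bases and a prey of 38. Deleted libraries held 36, 55 and 27 junctions with αCD40/IL4 and 61, 87 and 81 with LPS/αIgD-dextran, 347 in all. Over all 3-kb bins of the window that could be tested, 26.9% were called higher in deleted cells with αCD40/IL4 and 29.4% with LPS/αIgD-dextran. Calling a bin required a Benjamini-Hochberg adjusted p under 0.05 by Fisher's exact test on the summed junctions of each group, which compares junctions and not libraries, and no overlap between their libraries. The stretch was chosen on this contrast, and nothing is read from it here.

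**Figure D1:**
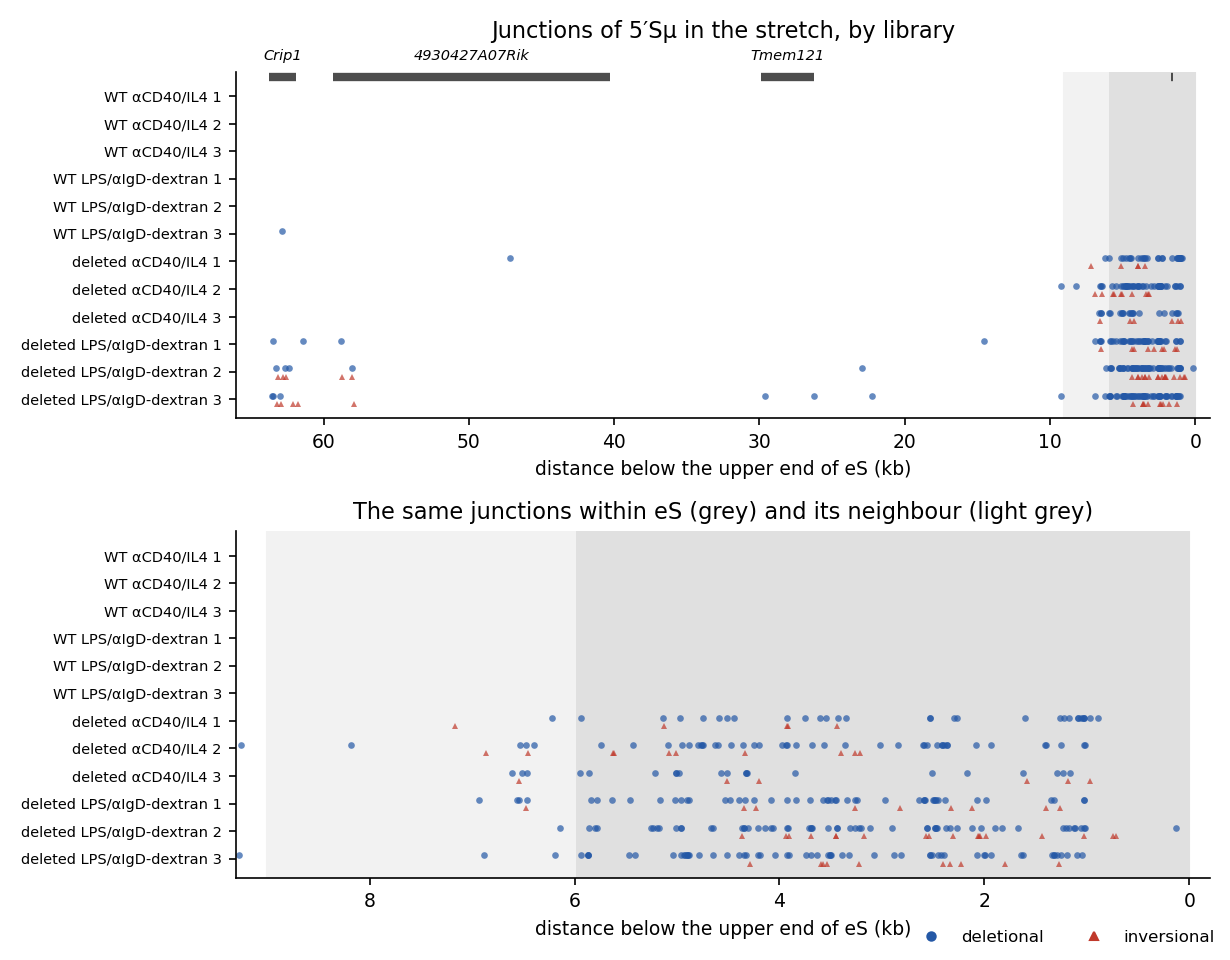
Each mark is 1 junction of 5′Sμ, placed by its distance in kb below the upper end of eS, with 1 line per library, circles for deletional and triangles for inversional junctions. Bars in the upper panel mark annotated genes (the unlabelled tick is a U6 small nuclear RNA gene), and the lower panel enlarges eS and its neighbour. Deleted libraries filled eS, from about 1 kb below its upper end, and only LPS/αIgD-dextran libraries held junctions at the Crip1 end.

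Most junctions of the deleted cells lay in eS. It held 299 of the 347, or 86.2%, and its neighbour 20 (5.76%), while the remaining 55 kb held 28 (8.07%). Per kb this was 49.8 junctions in eS, 6.67 in the neighbour and 0.509 in the rest. With αCD40/IL4, eS held 33, 48 and 23 junctions in replicates 1, 2 and 3, which was 1.68% (Wilson 1.20 to 2.35), 2.06% (1.56 to 2.72) and 1.82% (1.21 to 2.71) of the window. With LPS/αIgD-dextran it held 52, 76 and 67, which was 2.49% (1.90 to 3.25), 2.67% (2.14 to 3.33) and 2.26% (1.78 to 2.86). All 6 libraries had eS junctions, and the counting intervals of every pair within a group overlapped. The αCD40/IL4 percentages of eS are too high, since part of the Sγ1 junctions is absent from these lists, and their intervals ignore this. The study, with more Sγ1 junctions in its totals, gave lower αCD40/IL4 percentages for its eS.

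Within eS the junctions were spread over about 5 kb rather than gathered at a few sites. The highest lay at 114453867, 133 bases below the upper end, and the next at 714 bases, and the uppermost kb held only 6 of 299 junctions (2.01%). The kb bins below it held 58, 62, 70, 67 and 36 junctions in descending order of coordinate. The median distance below the upper end was 3.35, 3.76 and 4.32 kb in αCD40/IL4 replicates 1, 2 and 3 and 3.40, 3.21 and 3.51 kb in the LPS/αIgD-dextran replicates. In none of the 6 bins did the share of a library's eS junctions separate the stimulations (two-sided exact permutation tests, smallest p = 0.2, adjusted p = 0.6 over the 6 bins). The bin from 114450001 to 114451000 varied most among αCD40/IL4 libraries, with 9 of 33, 11 of 48 and 1 of 23 junctions, against 13 of 52, 20 of 76 and 16 of 67 with LPS/αIgD-dextran.

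**Figure D2:**
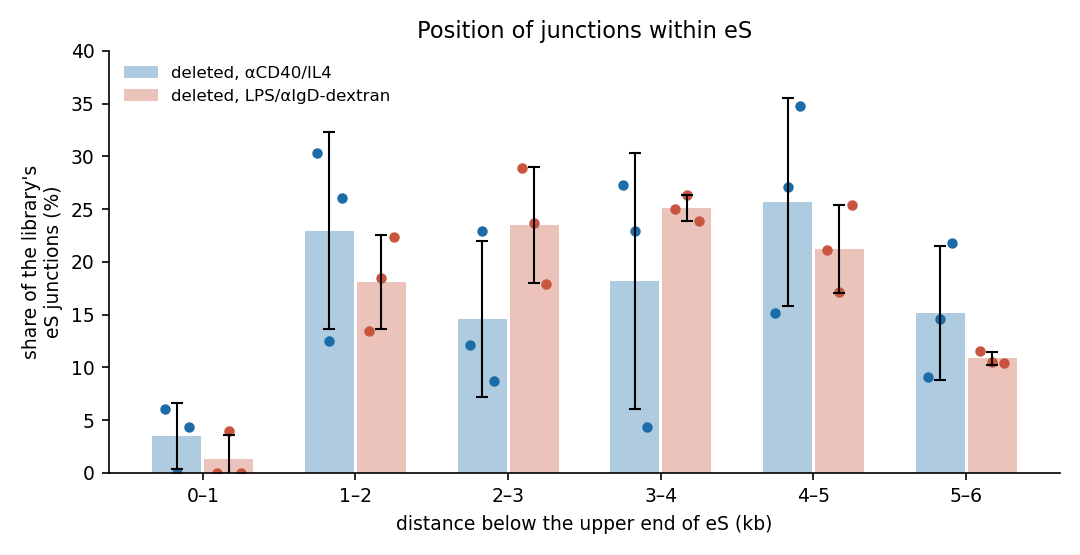
The share of each deleted library's eS junctions (%) is plotted against distance in kb below the upper end of eS, with bars for the mean of 3 libraries, error bars for the SD and dots for libraries. The uppermost kb held 2.01% of eS junctions, and the libraries of the 2 stimulations overlapped in all 6 bins.

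Few positions recurred. The 299 eS junctions fell on 273 combinations of position and strand, of which 251 were found once and 14 in more than 1 library. At most 3 junctions shared a position, at 4 positions, all deletional: 114449040, 114449121, 114449653 and 114452968. The positions 114449121 and 114452968 were each found in 3 libraries. Pairs of junctions with the same prey position and the same bait end, which could be copies of one molecule, were found 4 times within a library.

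The junction base lay in a DGYW/WRCH motif, located in the mm9 sequence on both strands, in 126 of 299 eS junctions, or 42.1% (Wilson 36.7 to 47.8), and these motifs cover 34.25% of the positions of eS. By library the share was 36.4% (12 of 33), 33.3% (16 of 48) and 43.5% (10 of 23) with αCD40/IL4. With LPS/αIgD-dextran it was 48.1% (25 of 52), 53.9% (41 of 76) and 32.8% (22 of 67), so that αCD40/IL4 replicate 2 and LPS/αIgD-dextran replicate 3 lay below the share of positions and the other 4 above it. With every position and strand counted once the share was 41.0% (35.4 to 46.9). The share was 41.9% in deletional and 43.4% in inversional junctions, and 41.2% in joints with homology, 41.0% in direct joints and 45.6% in joints with an insertion. AGCT, which overlaps DGYW/WRCH, occurs 22 times in eS and covers 1.47% of its positions, and 13 junctions (4.35%, 2.56 to 7.30) lay on it. These were 1, 1 and 0 in αCD40/IL4 replicates 1, 2 and 3 and 4, 5 and 2 in the LPS/αIgD-dextran replicates. Summed, αCD40/IL4 had 2 of 104 (1.92%, 0.529 to 6.74), an interval that includes the share of positions. LPS/αIgD-dextran had 11 of 195 (5.64%, 3.18 to 9.82), and whether the stimulations differed was not tested. Counted once per position and strand, 10 of 273 (3.66%) lay on AGCT. In joints with homology the position of the junction base is not unique. For a short core of its eS, the study reported a higher share of junctions in motifs under both stimulations. That share covers other junctions than the whole of eS scored here, and the values were not compared. Motif density in eS was close to that of the neighbour, while AGCT was denser and GC content higher in the rest of the stretch. AGCT occurred 3.67 times per kb in eS, 3.33 in the neighbour and 5.51 in the rest of the stretch, DGYW/WRCH covered 34.25, 32.4 and 33.5% of positions, and GC content was 44.1, 43.1 and 50.8%.

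The neighbour's 20 junctions adjoined eS. With eS they made 35, 54 and 27 junctions in αCD40/IL4 replicates 1, 2 and 3 and 57, 77 and 69 with LPS/αIgD-dextran. The study gives these same counts for its eS, so eS alone here holds fewer. The neighbour's junctions lay between 6.14 and 8.18 kb below the upper end of eS, 18 of them within 1 kb of the boundary and 13 between 6.2 and 6.7 kb. The neighbour held 2, 6 and 4 junctions in αCD40/IL4 replicates 1, 2 and 3 and 5, 1 and 2 in the LPS/αIgD-dextran replicates. Its mean share was 0.225% ± 0.111 (SD, n = 3) with αCD40/IL4 and 0.114% ± 0.110 with LPS/αIgD-dextran, and the libraries overlapped. The first of these means is likewise too high for want of Sγ1 junctions. Of the 20, 5 were inversional, 12 had homology, 4 were direct and 4 carried an insertion.

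Whether deleted cells joined more breaks to the stretch under one stimulation depended on the denominator. In the window, the share was 1.84, 2.36 and 2.13% in αCD40/IL4 replicates 1, 2 and 3 and 2.92, 3.06 and 2.73% in the LPS/αIgD-dextran replicates. The mean was 2.11% ± 0.264 (SD, n = 3) against 2.90% ± 0.164, a ratio of 1.38 without overlap (exact permutation test, two-sided, p = 0.1, the lowest possible for 3 against 3, adjusted p = 0.6 over 6 comparisons). Within the run of replicate 1 the difference was 1.08 percentage points, and within the run that held αCD40/IL4 replicate 2 with LPS/αIgD-dextran replicates 2 and 3 it was 0.532. Among window junctions outside Sμ the ratio was 1.99, and among all junctions genome-wide 1.45, again without overlap. Within those runs the differences were 5.17 and 3.80 points outside Sμ, but 0.715 and 0.136 genome-wide, where αCD40/IL4 replicate 3, in a run of its own, lay at 0.823% against 1.58 and 1.66% in replicates 1 and 2. The Sγ1 junctions missing from the αCD40/IL4 lists raise the αCD40/IL4 shares in these denominators and in the window. The ratios of 1.38, 1.99 and 1.45 are therefore lower than complete lists would give, by an amount not computed here. Relative to junctions within Sμ, the stretch amounted to 3.43, 4.24 and 4.07% with αCD40/IL4 and 4.29, 4.49 and 3.99% with LPS/αIgD-dextran, a ratio of 1.09 with overlap (p = 0.4 by the same exact test). Within the runs this difference was 0.861 points for replicate 1 and -0.0055 in the other run. With the Sγ1 unit left out of the window, the difference turned, to 3.21% ± 0.379 with αCD40/IL4 and 2.91% ± 0.164 with LPS/αIgD-dextran, also with overlap (exact permutation p = 0.3). Within the runs it was 0.122 and -0.646 points, so it did not turn in the run of replicate 1.

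**Figure D3:**
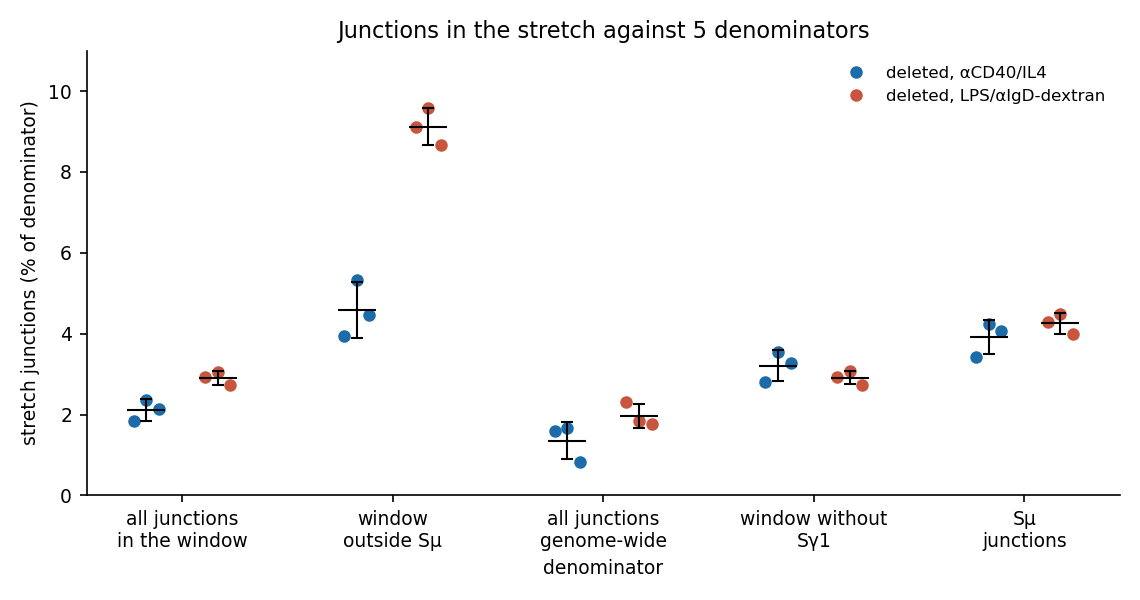
Junctions in the stretch are plotted as a percentage of 5 denominators for each deleted library, with dots for libraries and bars for the mean and SD of 3. The stimulations separated in the first 3 denominators and overlapped relative to the window without Sγ1 and to Sμ junctions. In those 3 the Sγ1 junctions missing from the αCD40/IL4 lists raise the αCD40/IL4 values.

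Junctions in the stretch were mostly deletional under both stimulations. Inversional junctions made up 13.9% (5 of 36), 18.2% (10 of 55) and 22.2% (6 of 27) with αCD40/IL4 and 14.8% (9 of 61), 26.4% (23 of 87) and 18.5% (15 of 81) with LPS/αIgD-dextran. The means of 18.1% ± 4.17 and 19.9% ± 5.96 (SD, n = 3) differed by less than the spread between libraries (exact permutation test, two-sided, p = 0.6), and without the lowest 10 kb, also added later, they were 18.1 and 17.4%. The inversional share by kb of eS was 10.4 to 24.3% in the 5 lower bins and 3 of 6 in the uppermost.

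Within the same libraries, the orientation of these junctions was compared with that of the S acceptors, the region from Sε to Sγ3 that holds the constant-region units used in switching, and with that of Sμ itself. Over the 6 deleted libraries the inversional share was 19.0% ± 4.71 (SD, n = 6) in the stretch, 15.7% ± 3.61 in the S acceptors and 26.3% ± 4.45 in Sμ. It was higher than in the S acceptors in 4 of 6 libraries, by 3.27 percentage points on average (two-sided exact sign-flip permutation test, p = 0.344, adjusted p = 0.458 over 8 comparisons), and by 0.913 points without LPS/αIgD-dextran replicate 2. The differences were -3.99, -0.989 and 2.57 points in αCD40/IL4 replicates 1, 2 and 3 and 0.757, 15.03 and 6.21 in the LPS/αIgD-dextran replicates. The S acceptors themselves had a mean inversional share of 18.9% ± 0.916 (SD, n = 3) with αCD40/IL4 and 12.6% ± 1.32 with LPS/αIgD-dextran, and whether the difference depended on the stimulation was not tested. The inversional share of the stretch lay below that of Sμ in 5 of 6 libraries, with a mean difference of stretch minus Sμ of -7.33 points (p = 0.0625 by the same exact test, adjusted p = 0.167), which did not pass the threshold of 0.05. LPS/αIgD-dextran replicate 2 was the exception, 4.44 points above its Sμ. When the Sγ1 unit was left out of the S acceptors, which was added once the values were known, the stretch was 6.74 points above them (exact permutation p = 0.03125, the lowest possible for 6 differences). Sγ1, whose αCD40/IL4 lists are incomplete, gave 675 of 867, 778 of 965 and 444 of 570 S-acceptor junctions in deleted αCD40/IL4 replicates 1, 2 and 3. How this affected the comparisons of orientation and joints with the S acceptors was not tested.

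**Figure D4:**
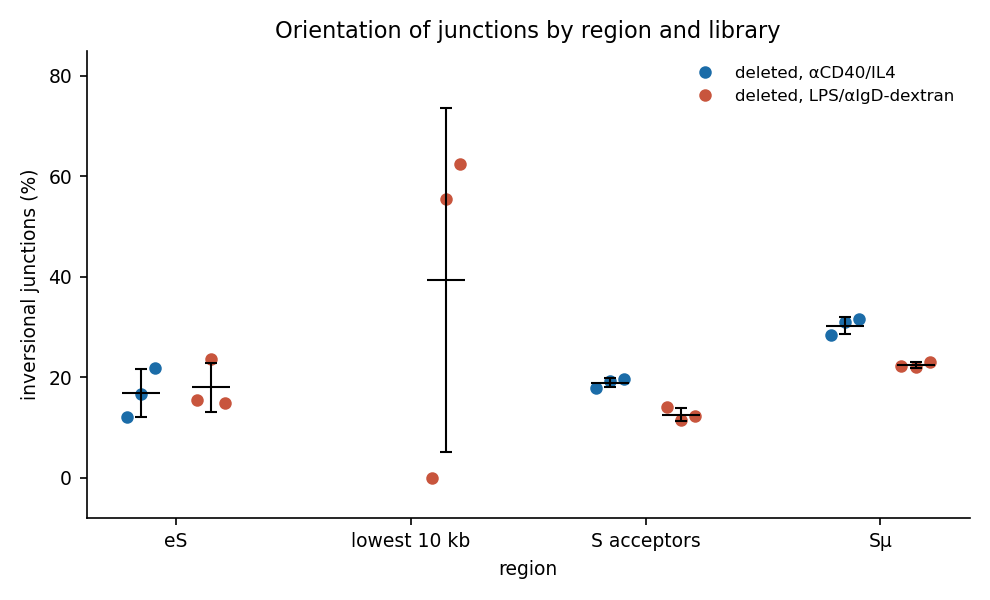
The share of inversional junctions (%) is plotted for each deleted library in eS, in the lowest 10 kb of the stretch (LPS/αIgD-dextran libraries only, with 3, 9 and 8 junctions), in the S acceptors and in Sμ, with bars for the mean and SD. The eS libraries sat between 12.1 and 23.7%, below Sμ with αCD40/IL4.

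All 3 kinds of joint occurred in the stretch. Of the 347 joints of deleted cells, 178 shared bases between bait and prey, 88 were direct and 81 carried an insertion. Homology was 1 base in 69, 2 bases in 63, 3 bases in 19 and 4 or more in 27. Joints with homology made up 50.0, 56.4 and 44.4% in αCD40/IL4 replicates 1, 2 and 3 and 44.3, 52.9 and 54.3% in the LPS/αIgD-dextran replicates, and the means of 50.3% ± 5.96 and 50.5% ± 5.44 (SD, n = 3) overlapped (two-sided exact permutation test, p = 1.0). Joints with an insertion made up 16.7, 23.6 and 14.8% with αCD40/IL4 and 26.2, 21.8 and 28.4% with LPS/αIgD-dextran. Their means were 18.4% ± 4.65 and 25.5% ± 3.34, and the libraries overlapped through αCD40/IL4 replicate 2 and LPS/αIgD-dextran replicate 2 (two-sided exact permutation test, p = 0.2, adjusted p = 0.6).

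Compared within libraries, the share of joints with homology differed by -5.45 percentage points from the S acceptors and by -6.94 from Sμ, with 5 of 6 libraries lower in each comparison, and neither passed the threshold of 0.05 (two-sided exact sign-flip permutation test, p = 0.0625 and adjusted p = 0.167 for both). The shares were 50.4% ± 5.11 (SD, n = 6) in the stretch, 55.8% ± 0.618 in the S acceptors and 57.3% ± 0.897 in Sμ. αCD40/IL4 replicate 2 was the exception in both comparisons. Homology of 3 bases or more was found in 46 of the 347 joints, and its classes of 3 and of 4 or more bases had means of 5.39 and 6.82% in the stretch, 9.13 and 10.02% in the S acceptors and 10.5 and 10.8% in Sμ. Insertions differed by 0.668 points from the S acceptors and 0.706 from Sμ, with 3 libraries higher and 3 lower in each (exact permutation p = 0.781 and 0.750). The median length of bait, which places the break within the 5′ end of Sμ, was 64 to 83 bases by library and differed by 4.17 bases from either reference (exact permutation p = 0.25 and 0.188).

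**Figure D5:**
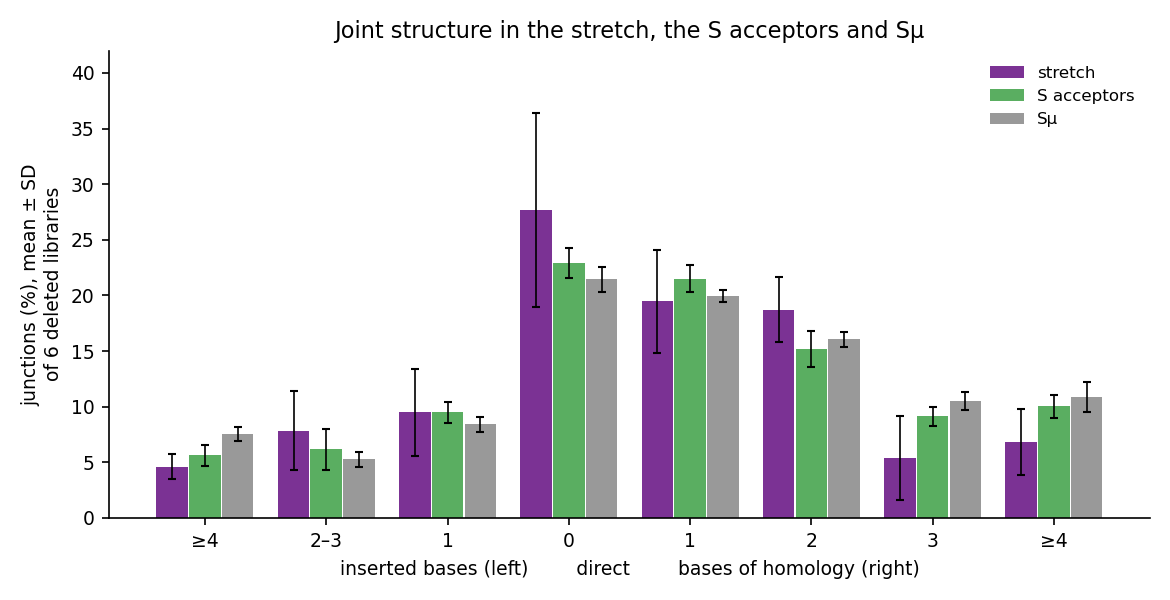
The share of junctions (%) in each class of joint, by inserted bases, direct joining or bases of homology, is plotted as the mean of 6 deleted libraries with the SD as error bars, for the stretch, the S acceptors and Sμ. Homology of 3 bases averaged 5.39% in the stretch, 9.13% in the S acceptors and 10.5% in Sμ.

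At the far end of the stretch, 20 junctions from deleted cells lay around Crip1 and the 5′ end of 4930427A07Rik, and all came from LPS/αIgD-dextran libraries. This end was picked after its values were seen, so its counts are a description. The lowest 10 kb held 3, 9 and 8 junctions in LPS/αIgD-dextran replicates 1, 2 and 3 and 0, 0 and 0 in the αCD40/IL4 replicates, where a count of 0 allows up to 0.153, 0.129 and 0.237% of the window. The LPS/αIgD-dextran shares were 0.143% (Wilson 0.0488 to 0.421), 0.316% (0.167 to 0.6) and 0.270% (0.137 to 0.531), so replicate 1 lay below the limits of αCD40/IL4 replicates 1 and 3. The WT junction described above also came from an LPS/αIgD-dextran library and lay among them. Among 3-kb bins on a grid over the window, compared by the same rule between the stimulations in deleted cells, 27.8% were called higher with LPS/αIgD-dextran and 52.8% in either direction. Of the 6 bins tested in the stretch 1 was called, from 114391001 to 114394000, which held 9 of these 20 junctions. The rule takes single junctions as independent, libraries alone could not go below p = 0.1 in an exact permutation test, and nothing is drawn from that call. It was lost with the replicate number as a block, in bins of 1 kb and without any one of the αCD40/IL4 libraries. With at least 10 junctions per bin 0 of 3 bins in the stretch were called. In the stretch 2 of 4 bins of 6 kb were called, and 2 of 5 bins of 3 kb without LPS/αIgD-dextran replicate 1. With window junctions outside Sμ as the denominator 5 of the 6 bins were called, among 21 of 31 in all. In the main setting the 2 bins of eS were not called.

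The junctions at this end lay between 114390456 and 114396079, at 20 different positions over 5.62 kb. Crip1 (chr12:114390223-114392088, plus strand), which encodes a cysteine-rich LIM-domain protein, held 13 of them, 12 in introns and 1 in a coding exon. The first lay 233 bases and the last 1640 bases past its annotated start. Another 2 lay between the genes, and 5 in an intron of 4930427A07Rik (chr12:114394632-114413736, plus strand), a gene known by its clone name. Of the 20, 10 were inversional (50.0%, Wilson 29.9 to 70.1), with 0 of 3, 5 of 9 and 5 of 8 in replicates 1, 2 and 3. In eS of the same libraries 36 of 195 were inversional (18.5%, 13.6 to 24.5), with 8 of 52, 18 of 76 and 10 of 67, so the Crip1 end lay above eS in replicates 2 and 3 and below it in replicate 1. Both intervals sum junctions over libraries and take them as independent. By library the mean difference was 21.35 percentage points (two-sided exact sign-flip permutation test, p = 0.5). With 3 libraries that test cannot go below 0.25, and no difference in orientation is read from these counts. Of the 20 joints 6 had homology, none longer than 2 bases, 5 were direct and 9 carried an insertion.

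Between this end and the neighbour, 45 kb held 8 junctions, 2 with αCD40/IL4 and 6 with LPS/αIgD-dextran, all deletional, or 0.178 per kb. They lay at 114406822 in an intron of 4930427A07Rik, at 114424392 in an intron of Tmem121 (chr12:114424114-114427731, plus strand), which encodes a transmembrane protein, and at 114427768, 114431037, 114431777, 114439454, 114444727 and 114444744 between genes. Of the 8, 7 had homology, of 1 to 5 bases, and 1 was direct. Inside eS the only annotated gene was a U6 small nuclear RNA gene (chr12:114452360-114452463), with 4 junctions, 3 with αCD40/IL4 and 1 with LPS/αIgD-dextran.

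The limits of the stretch fell in sequence with few junctions. At the lower end, the nearest junctions inside lay at 114390456, 114390505 and 114390525, all with LPS/αIgD-dextran, and the nearest outside at 114384751 and, in 2 junctions, at 114379559, all in deleted αCD40/IL4 replicate 3. At the upper end, the nearest inside lay at 114453867, 114453286 and 114453254, all in deleted LPS/αIgD-dextran replicate 2, and the nearest outside at 114460967, 114461068 and 114461480, all in WT libraries. Deleted libraries had no junction between 114453867 and 114465670, a gap of 11.8 kb that held 5 WT junctions of 25776. A count of 0 among the 13458 junctions of deleted cells allows a share of up to 0.0223%, so the junctions do not by themselves check the deletion.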

How the data were processed

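Junctions were read from 12 libraries, grouped by genotype and stimulation from the sample labels. The authors aligned reads with Bowtie2 to an AJ851868/mm9 hybrid genome, removed duplicates and deposited a junction list for each library, in which each row is 1 junction with its position, strand and read coordinates, unnormalized. The members, lists and tests were chosen with earlier results of these data known. The number of bases shared or inserted is the bait's last read base minus the prey's first plus 1. A junction is inversional where bait and prey strands differ. Region limits of Sμ and the S acceptors are in hybrid coordinates. Joints and motifs in the stretch were read from mm9 and genes from GENCODE M1. The regions, 1-kb bins, genes, the 3 windows of 10 bases with the most junctions, and the printed joints followed fixed rules.

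Shares were compared by two-sided exact permutation over libraries (3 against 3) and exact sign-flips of 6 within-library differences, with Benjamini-Hochberg adjustment. At the Crip1 end the sign-flips used 3 differences, without adjustment. Bins of 3 kb with at least 5 junctions were tested by Fisher's exact test. Tested on simulated data, 10 draws of 20 bins at the depth of the deleted libraries and with counting error alone, this recovered 38 of 40 bins raised 3-fold with LPS/αIgD-dextran and called 0 of 160 unchanged bins higher. Alternatives covered the denominator, boundaries, orientation, homology threshold, repeated positions, replicate block, each library left out and bin width. Calculations ran in Python 3.11.15 (scipy 1.17.1, numpy 2.4.6, pysam 0.24.0, pandas 2.3.3) and plots in matplotlib 3.10.9. GRO-seq and 3C-HTGTS data of the study were not analysed here.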

Additional observations from a re-analysis of the deposited data

How the results depend on the processing

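Leaving out each library in turn moved the difference in the stretch's share (LPS/αIgD-dextran minus αCD40/IL4, in percentage points) between 0.656 and 0.919. For Sμ junctions as the denominator it was 0.341 with overlap. For the window without Sγ1, a unit used almost only with αCD40/IL4, it was -0.301, and the cause of this reversal was not tested. The insertion difference of 7.12 points became 7.54 without overlap when each prey position was counted once, and 5.34 to 9.75 with a library left out, where it lost its overlap without αCD40/IL4 replicate 2 (9.75) or LPS/αIgD-dextran replicate 2 (8.94). The share of eS junctions in its upper 3 kb differed by 1.88 points, with a range of -0.921 to 5.61 and no overlap without αCD40/IL4 replicate 1. Differences that failed the test changed sign under several settings, as the ranges that cross 0 show, and also to -0.667 points for the inversional share without the lowest 10 kb and to -1.58 for homology with each prey position counted once. Other ranges with a library left out were -1.46 to 4.38 for the inversional share, -2.70 to 3.33 for homology and -2.67 to 5.33 bases for bait length. Against the S acceptors they were 0.913 to 4.72 for the inversional share, -6.56 to -4.30 for homology, -0.576 to 2.16 for insertions and 2.60 to 5.80 for bait length, and against Sμ -9.68 to -5.91, -8.39 to -5.52, -0.678 to 2.08 and 3.0 to 6.2. With 5 libraries left a sign-flip test cannot pass, since its smallest p is 0.0625. Homology of at least 2 bases (-6.48 points) and deletional junctions alone (-7.56) each put the difference from Sμ at exact permutation p = 0.03125, and leaving Sγ1 out of the S acceptors put the inversional difference at 6.74 points. Bins of 1 kb gave 39 called of 65 against 19 of 36, with 0 of 9 in the stretch, and leaving out a library gave 16 to 21. Correlations of deviations between same-numbered libraries were 0.0954, -0.402 and -0.784 for pairs 1, 2 and 3. Each rests on 6 measures, too few to decide whether replicate numbers pair the libraries. With the replicate block the mean difference in the stretch's share was 0.793 points, with LPS/αIgD-dextran higher in all 3 pairs (exact permutation p = 0.25, the smallest possible), 18 bins were called, 0 of 6 in the stretch, and no other call changed. In all, 142 of 166 alternatives kept direction and call, and 15 reversed the direction, 14 of these where neither value passed.

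Depth limits these comparisons most in αCD40/IL4 replicate 3, with 27 junctions in the stretch, and at the Crip1 end, with 3 to 9 per library. Of the 3281 junctions of that αCD40/IL4 library 1267 lay in the window, and it shared joints with other libraries as given above. Reads came from 129-background cells while positions were compared with mm9, and the 30-base case above shows that bases read as an insertion in one library can be aligned to eS in another. Its cause, and how many of the 81 insertions are of this kind, was not tested.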
